A study of Mus musculus with 6 samples.

Results

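Lmo3 and Trib2 are 2 mouse genes in whose surroundings H3K27ac, the acetylation of histone H3 at lysine 27 found at active promoters and enhancers, was called in the Ewing sarcoma line ES48 and not in the line ES49. The members are all peaks that 5 ChIP-seq peak lists hold in a window of 300 kb at Lmo3 (chr6:138200000-138500000) and in a window of 400 kb at Trib2 (chr12:15600000-16000000), in mm9. There are 15 such peaks among 76477 in all lists. The Lmo3 window held 7 ES48 H3K27ac peaks. The Trib2 window held 6 ES48 H3K27ac peaks and 2 ES49 peaks of H3K27me3, the methylation of the same lysine that Polycomb complexes lay down on silent developmental genes. Neither window held an ES49 H3K27ac peak, nor a peak of the fusion protein EWS-FLI1 in either line. The windows were chosen by the H3K27ac peaks themselves, called in ES48 and not in ES49, so that difference is given as a description and was not tested.

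The ES48 and ES49 lines are untreated murine cells on a Balb/c background in which EWS-FLI1 was used to induce Ewing sarcoma. Both carry the fusion, and no line without it is among the samples. In ES48, EWS-FLI1 was precipitated with a FLAG antibody and H3K27ac with its own antibody. In ES49 the same was done, together with H3K27me3 and an input sample that was not analysed here. Each of these 6 samples is a group of 1, and nothing in the labels says whether a line is a clone. There is no replicate of either line, so a difference between ES48 and ES49 cannot be told apart from one between 2 libraries.

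LMO3 belongs to the LIM-only family, small nuclear proteins made of LIM zinc-finger domains that bind no DNA themselves and join transcription factors to cofactors such as LDB1. In human neuroblastoma LMO3 is known as a growth-promoting cofactor. TRIB2 is a Tribbles pseudokinase, a kinase-like scaffold that brings the ubiquitin ligase COP1 to substrates such as the transcription factor C/EBP alpha, and its overexpression causes leukaemia in mice. EWS-FLI1 binds the ETS core GGAA, above all in repeats, and can open enhancers there. H3K27ac and H3K27me3 cannot sit on the same lysine of the same histone tail, so a region called for both holds them on different histones, alleles or cells.

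The mm9 position used for Trib2, about chr12:15798500-15823700 on the minus strand, puts its 5′ end near base 15823700, inside the ES48 H3K27ac peak described below. The bases upstream of the Trib2 start in the RefSeq promoter table are therefore shown, beside those upstream of the Lmo3 start that it lists. They were taken from RefSeq on GRCm38.p6, as the 250 bases before 1 start of each gene, and their positions cannot be set against the mm9 peaks. Capitals mark GGAA and its reverse complement TTCC. Trib2 (chr12:15816786-15817035, GRCm38.p6, minus strand) and Lmo3 (chr6:138581969-138582218, GRCm38.p6, minus strand) read as follows.
Trib2: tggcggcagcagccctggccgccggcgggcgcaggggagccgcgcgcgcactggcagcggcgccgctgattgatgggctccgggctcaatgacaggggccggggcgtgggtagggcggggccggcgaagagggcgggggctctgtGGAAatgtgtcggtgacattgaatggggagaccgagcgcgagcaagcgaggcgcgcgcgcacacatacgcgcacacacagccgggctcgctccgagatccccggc
Lmo3: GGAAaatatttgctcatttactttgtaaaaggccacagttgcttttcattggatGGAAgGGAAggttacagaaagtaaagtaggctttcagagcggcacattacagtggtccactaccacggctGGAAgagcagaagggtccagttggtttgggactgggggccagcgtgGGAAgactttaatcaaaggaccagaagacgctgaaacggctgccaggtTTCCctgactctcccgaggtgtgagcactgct

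The stretch upstream of Trib2 was rich in CpG, with 34 CpG dinucleotides and 73.6% G and C in 250 bases. That upstream of the Lmo3 start had 6 CpG and 50% G and C. Over the 32851 promoters of the same length in the RefSeq table the medians were 6 CpG and 52.4%, and 3.53% of the promoters had at least as many CpG as Trib2. The ETS core was counted on both strands, as GGAA or TTCC, overlaps allowed. Trib2 had 1 match and Lmo3 had 6, against a median of 3, and 93.4% of all promoters had at least 1 match. Neither stretch held GGAA as a run (GGAAGGAA or TTCCTTCC), which 3.12% of the promoters did. These counts describe the letters of these stretches alone. Lmo3 has many RefSeq transcripts and the table used here gives 1 start, so whether that start lies in the acetylated stretch was not tested. Its 250 bases are numbered from 138581969 on GRCm38.p6, the Lmo3 window ends at 138500000 on mm9, and the builds number bases differently. They are not taken here as the promoter of the acetylated stretch.

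All 13 ES48 H3K27ac peaks of the windows lacked an overlapping ES49 H3K27ac peak, where 1 shared base counts as an overlap. Over the whole ES48 list, 8667 of 25970 peaks lacked one, which is 33.4%. This is the contrast by which the windows were picked, and nothing is read from the count. The share depended on the score, the peak caller's own value for each peak, whose scale is not stated. Peaks without an ES49 counterpart made up 66.1% of the ES48 peaks with a score under 200 and 2.07% of those with a score of at least 3100, where 105 of 5084 lacked one. Of the ES48 H3K27ac peaks at least 5000 bp wide, 4.01% lacked one. Among the members, 3 peaks had a score of at least 3100, and the same 3 were at least 5000 bp wide.

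**Figure D1:**
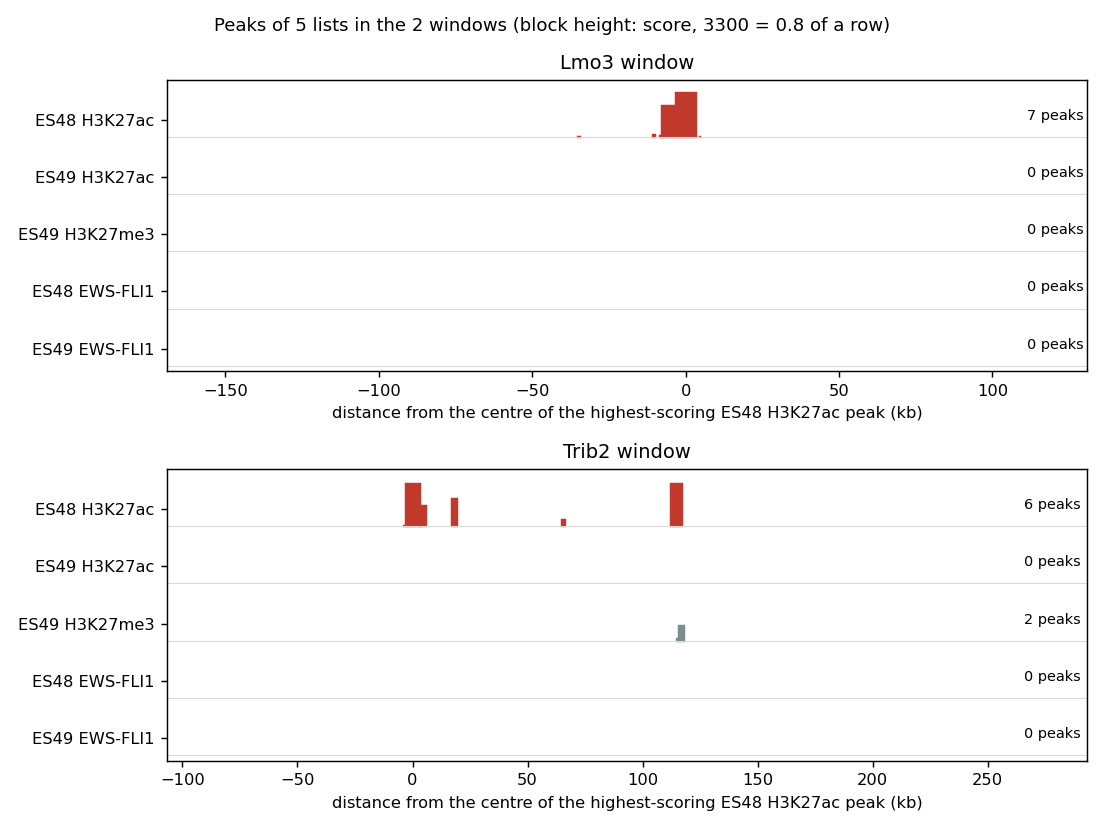
Peaks of the 5 lists in the Lmo3 window (upper panel) and the Trib2 window (lower panel), placed by their distance in kb from the centre of the highest-scoring, widest ES48 H3K27ac peak, with block height proportional to the score. ES48 H3K27ac has 7 and 6 peaks, ES49 H3K27me3 has 0 and 2, and the rows of ES49 H3K27ac and of EWS-FLI1 in both lines are empty.

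At Lmo3 the acetylation formed a compact block. The peak chr6:138365575-138372508 was 6934 bp wide with a score of 3233.1, the highest in the ES48 H3K27ac list, which 9 peaks share. The same value was the highest score of the ES49 H3K27ac and ES49 H3K27me3 lists. It is therefore not read as a measure of strength, and it does not rank the 9 peaks among themselves. The 6934 bp peak was adjoined, 224 bp away, by chr6:138360866-138365350, 4485 bp wide with a score of 2310.0. These 2 peaks held 80.4% of the covered length of the window, and by width 1.69% and 5.53% of the ES48 list exceeded them.

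The other 5 peaks at Lmo3 were short and low-scoring, with widths of 403 to 821 bp and scores of 53.7 to 178. The peaks chr6:138358234-138359054 (score 178) and chr6:138360346-138360861 (score 107) lay on one side of the wide peaks, and chr6:138373438-138373840 (score 58.4) on the other. Away from this block by 23.5 kb stood a pair of low-scoring peaks, chr6:138333581-138334036 (score 53.7) and chr6:138334171-138334757 (score 94.2). Between 68.1% and 96.2% of the ES48 H3K27ac list scored higher than these 5.

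At Trib2 the acetylation was spread over 121.3 kb in 3 separate places. The median peak score was 1792.3 in the Trib2 window and 107 in the Lmo3 window. Such medians depend on how a stretch is split into peaks. The Lmo3 median is the score of a 516 bp peak that lay 4 bp from the 4485 bp peak (score 2310.0). The first place at Trib2 lay beyond the 3′ end of the gene. Its widest peak was chr12:15703310-15710084, 6775 bp wide with a score of 3100. This was flanked at 204 bp by chr12:15702652-15703105 (454 bp, score 65.7) and at 69 bp by chr12:15710154-15712617 (2464 bp, score 1538.5). A further 10.8 kb on lay chr12:15723439-15726178 (2740 bp, score 2046.0). From these peaks the 3′ end of Trib2 was 72.3 to 95.4 kb away.

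The second place was a single peak of middling rank, chr12:15771184-15773073, 1890 bp wide with a score of 496.4, at 25.4 kb from the 3′ end. The third, chr12:15818512-15823996, lay over the 5′ end of Trib2, 5485 bp wide with a score of 3100. A score of exactly 3100 was shared by 4887 ES48 H3K27ac peaks, 18.8% of the list, so these scores do not rank peaks among themselves. By width, 1.81% of the ES48 list exceeded the peak at 15703310 and 3.28% exceeded the one over the 5′ end.

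**Figure D2:**
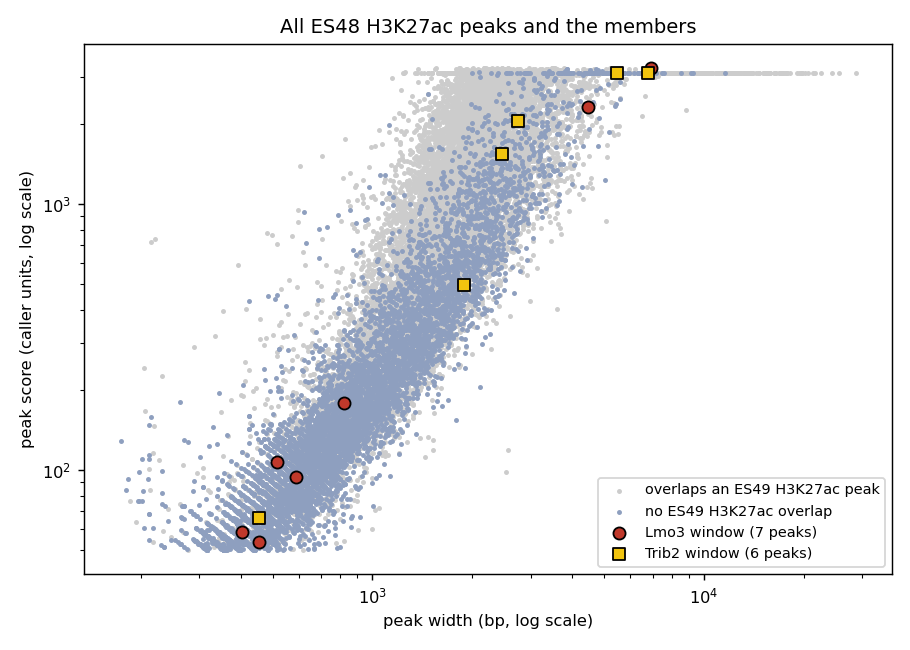
Width in bp and score of all ES48 H3K27ac peaks on log axes, with peaks that overlap ES49 H3K27ac in light grey, those that do not in blue, the Lmo3 window as circles and the Trib2 window as squares. At Lmo3, 2 circles lie at the upper right and 5 at the lower left, while the squares run along the whole range, from a score of 65.7 up to the line at 3100.

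Joined where less than 12.5 kb apart, the ES48 H3K27ac peaks made 13750 domains, of which 2680 (19.5%) held no part of an ES49 H3K27ac peak. The Lmo3 block, chr6:138358234-138373840, covered 13.2 kb and ranked 508 among all domains by covered length. Among the 2680 domains without ES49 H3K27ac it ranked 5. The 3′ domain at Trib2, chr12:15702652-15726178, covered 12.4 kb and ranked 562 among all and 7 among those without ES49 H3K27ac. Over the 5′ end of Trib2 the domain was the single 5485 bp peak, with rank 71 among those without. The windows were picked by this contrast, so ranks among domains or peaks without ES49 H3K27ac partly restate that choice. Taken peak by peak, the 6934 bp peak at Lmo3 was the 8th and the 6775 bp peak at Trib2 the 9th widest of the 8667 ES48 peaks without an ES49 counterpart, whose median width was 690 bp and median score 116.

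In covered length, the Lmo3 window had 14.2 kb of H3K27ac in ES48 and 0 kb in ES49, and the Trib2 window had 19.8 kb in ES48 and 0 kb in ES49. For scale, all chromosomes were cut end to end into tiles of the same length, and tiles with H3K27ac in either line were kept. In 4947 tiles of 300 kb the median was 5.36 kb in ES48 and 3.60 kb in ES49, and in 4072 tiles of 400 kb it was 6.58 kb in ES48 and 4.51 kb in ES49. A surplus of ES48 over ES49 at least as long as at Lmo3 was found in 3.94% of the 300 kb tiles, and one at least as long as at Trib2 in 2.6% of the 400 kb tiles.

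ES48 alone was covered in 10.4% of the 300 kb tiles and in 9.82% of the 400 kb tiles, against 4.57% and 3.9% in which ES49 alone was. With 0 in ES49 and an ES48 length at least that of the Lmo3 window there were 4 tiles of 300 kb (0.0809%), namely the one that holds the Lmo3 peaks, the one that holds the Trib2 peaks, chr6:6600001-6900000 and chr4:150600001-150900000. With 0 in ES49 and at least the length of the Trib2 window there were 2 tiles of 400 kb (0.0491%). These were that of Trib2 itself and chr3:127600001-128000000 with 30.4 kb in ES48. The tile counts, and the shares of tiles with as long a surplus, rest on the contrast by which the windows were picked. Nothing is read from them.

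**Figure D3:**
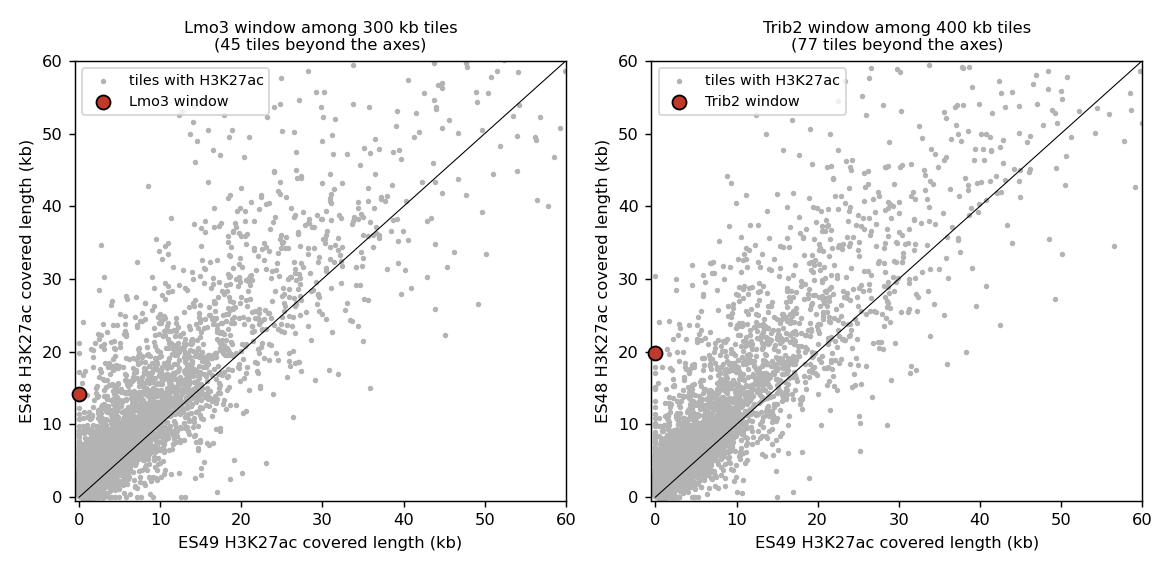
H3K27ac covered length in kb in ES48 (vertical axis) and ES49 (horizontal axis) for tiles of 300 kb (left) and 400 kb (right) with H3K27ac in either line, with the line of equal length and the windows as large points. Both windows sit on the vertical axis, at 14.2 kb (Lmo3) and 19.8 kb (Trib2) in ES48 and 0 kb in ES49.

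The lists differ as a whole in a way that touches these values. ES48 H3K27ac covered 48.3 Mb and ES49 H3K27ac 35.8 Mb, a ratio of 1.35, and 18.8% of the ES48 peaks had a score of 3100 against 5.73% of the ES49 peaks. On chromosome 6, which holds Lmo3, the ratio was 1.35, and on chromosome 12, which holds Trib2, it was 1.37. The part of these differences between the lists in the results at Lmo3 and Trib2 was not tested. Of the ES48 H3K27ac peaks, 31.5% on chromosome 6 and 34.8% on chromosome 12 had no ES49 overlap. Read counts are not in the lists and depth is unknown. A window without a peak is one without a call with a score of 50 or more, and weaker signal there cannot be seen.

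The distance to the nearest ES49 H3K27ac peak was long at both genes. From the ES48 peaks at Lmo3 it was 0.63 to 0.67 Mb, and from those at Trib2 0.772 to 0.893 Mb. The median over the ES48 peaks without an ES49 counterpart was 8.3 kb, and in 3.29% of them it was over 500 kb. Among the 105 with a score of at least 3100 the median was 27.1 kb, and 8 were over 500 kb away (7.62%), 3 of which are the members with that score. The windows were picked for holding no ES49 H3K27ac peak, and their ES48 members lay at least 102.7 kb inside the borders. Every member was therefore bound to be farther from ES49 acetylation than either median, and nothing is read from these distances.

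In the ES49 H3K27ac list, Lmo3 lay in an interval without peaks of 2.67 Mb (chr6:137703690-140372201) and Trib2 in one of 2.94 Mb (chr12:13655868-16596132). Of 29631 intervals between neighbouring ES49 peaks, 201 were at least 2 Mb long, and the median was 9.3 kb. ES48 H3K27ac was absent from 71 of the 201, and the median ES48 length in them was 0.94 kb. The Trib2 interval held the most ES48 H3K27ac of the 201, with 17 peaks covering 35.4 kb. The Lmo3 interval came 3rd, with 10 peaks covering 16.3 kb. As the windows were picked for ES48 H3K27ac without ES49 H3K27ac, these ranks partly restate that choice. At Lmo3 the 3 ES48 peaks outside the window covered 2.1 kb with scores of at most 136, so nearly all of the acetylation of that interval was in the window. At Trib2 the 11 peaks outside the window covered 15.6 kb.

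**Figure D4:**
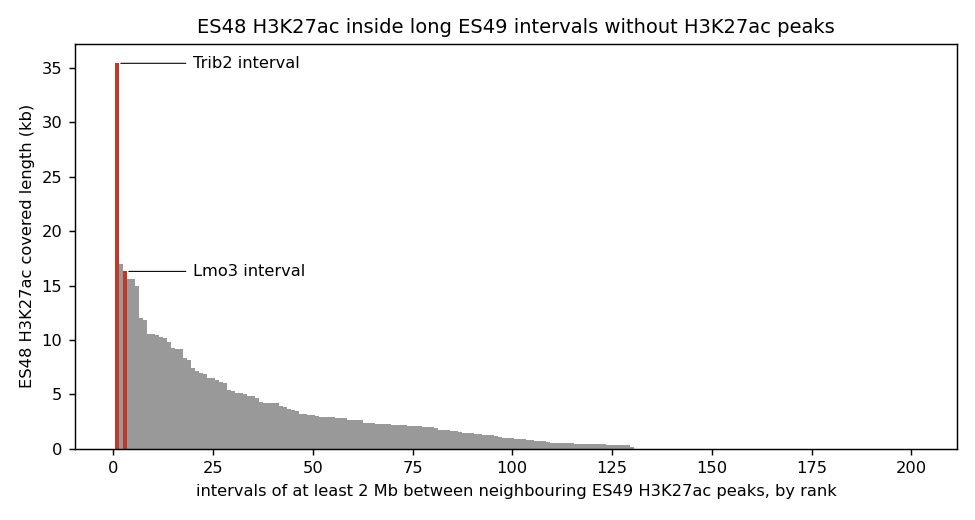
ES48 H3K27ac covered length in kb inside each of the 201 intervals of at least 2 Mb between neighbouring ES49 H3K27ac peaks, ranked from high to low, with the intervals that hold Trib2 and Lmo3 in red. The Trib2 interval is first with 35.4 kb and the Lmo3 interval 3rd with 16.3 kb, and 71 intervals are at 0.

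By its borders, each window took in the whole local cluster. At Lmo3 the outermost members lay 134 and 126 kb inside the borders, the nearest ES48 H3K27ac peak outside was chr6:138089101-138089979 at 110.0 kb (score 121), and on the other side the next was 1.57 Mb away. At Trib2 the outermost ES48 members lay 103 and 176.0 kb inside, and the nearest outside were chr12:16817207-16819271 at 817 kb (score 3100) and chr12:14420865-14423606 at 1.18 Mb (score 1856.1). The nearest ES49 H3K27ac peaks outside were chr6:137702718-137703689 (score 347) for Lmo3 and chr12:16596133-16597121 (score 165.5) for Trib2, at 0.496 and 0.596 Mb from the borders.

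The RefSeq gene table was used for names and order only, not for distance. In that order the coding neighbours of Lmo3 are Mgst1, a microsomal glutathione transferase, and Igbp1b, and the long noncoding RNA genes next to it in order of start are Gm30213, A830011K09Rik and Gm30332. Those of Trib2 are Lratd1 and Lpin1, a phosphatidate phosphatase, and Gm40287, Mir6387 and Gm5432 are among the noncoding genes between them. The peaks beyond the 3′ end of Trib2 were not assigned to a gene.

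The windows differed in ES49 H3K27me3. In ES49 the Trib2 window held chr12:15821981-15824566, 2586 bp wide with a score of 1127.0, and chr12:15821317-15821934, 618 bp wide with a score of 179, separated by 46 bp. By score they ranked 904 and 4313 of 19560 ES49 H3K27me3 peaks, and by width 5.46% and 35.5% of that list exceeded them. The wider one lay over the 5′ end of Trib2 and reached 866 bp beyond it, and the narrower one lay wholly inside the gene.

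There the marks of the lines met. The ES48 H3K27ac peak over the 5′ end shared 2634 bp with ES49 H3K27me3, 48% of its own width and 82.2% of the 3204 bp of H3K27me3. The 618 bp H3K27me3 peak lay wholly inside it, the 2586 bp peak shared 2016 bp with it, and 570 bp of H3K27me3 went on upstream past its edge. In the direction of transcription, 2805 bp of ES48 H3K27ac had no ES49 H3K27me3. The other 5 ES48 peaks at Trib2 had none either, the nearest being 48.2 kb from it and the farthest 118 kb.

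**Figure D5:**
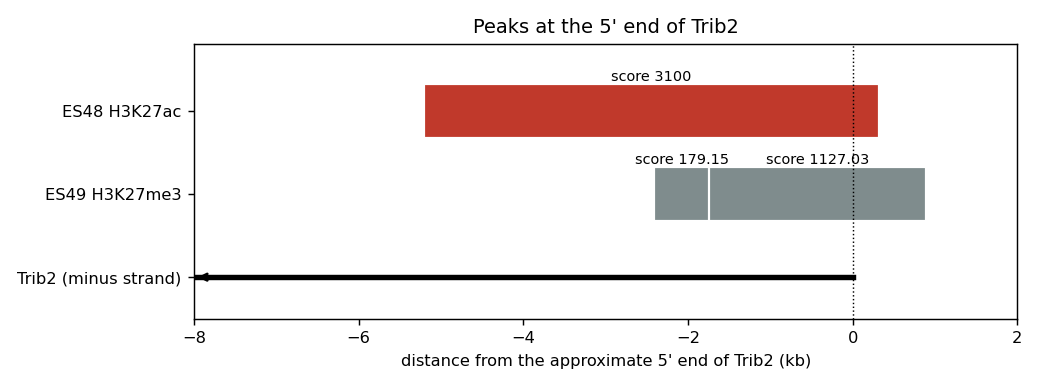
The ES48 H3K27ac peak over the 5′ end of Trib2 and the ES49 H3K27me3 peaks over and just inside it, by distance in kb from the approximate 5′ end, with the gene running to the left and scores above the blocks. The H3K27me3 blocks overlap 2634 bp of the right-hand part of the 5485 bp H3K27ac block and extend 570 bp past it.

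Across the genome, 451 ES48 H3K27ac peaks (1.74%) overlapped ES49 H3K27me3, as 1 of 13 members did. Of the 8667 ES48 peaks without ES49 H3K27ac, 256 (2.95%) overlapped ES49 H3K27me3, and of those with ES49 H3K27ac 1.13% did. The shared length at Trib2 ranked 11 among the 256, whose median was 643 bp. A shared length cannot exceed the width of the peak, so this rank depends on width, which was 5485 bp at Trib2. High-scoring peaks overlapped H3K27me3 more often. Of the 105 ES48 peaks without ES49 H3K27ac that, like the Trib2 peak, had a score of at least 3100, 18 overlapped it. Seen from the other mark, 2.9% of the ES49 H3K27me3 peaks overlapped ES48 H3K27ac and 1.49% overlapped ES49 H3K27ac. H3K27me3 has no list in ES48, so whether the 5′ end of Trib2 carried it there was not analysed here.

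At Lmo3 no H3K27me3 was called in ES49, and the nearest such peaks were 2.43 to 2.47 Mb from the members. That was the common case, as 73.3% of all 300 kb tiles had none. In 68.6% of the 400 kb tiles there was none, and 15.2% had at least the 3.20 kb of the Trib2 window. In ES49, therefore, the Trib2 start was called for H3K27me3 and the Lmo3 block for neither histone mark.

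No EWS-FLI1 peak fell in either window in ES48 or in ES49, as in 94.2% of the 300 kb tiles and 92.4% of the 400 kb tiles. The nearest ES48 EWS-FLI1 peak was 16 Mb from the Lmo3 members (chr6:122368328-122368450, score 67.3) and 2.85 to 2.97 Mb from the Trib2 members (chr12:12850778-12850939, score 59.0). In ES49 the nearest was 0.558 to 0.598 Mb from the Lmo3 members (chr6:137774886-137775547, score 161.5) and 2.05 to 2.16 Mb from the Trib2 members (chr12:13653353-13653819, score 124). Over all ES48 H3K27ac peaks the median distance was 2.73 Mb to the nearest ES48 EWS-FLI1 peak and 4.66 Mb to the nearest ES49 one. The EWS-FLI1 lists are short, with 614 peaks in ES48 and 681 in ES49, and chromosome 12 held 1 and 8 of them.

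Tiles most like each window were sought over the 5 lists, by Euclidean distance in log2 of the covered length plus 1000 bp. For Lmo3 they were chr5:99300001-99600000 (distance 0.45), with 15.7 kb of H3K27ac in ES48 and 0.35 kb in ES49, chr9:25200001-25500000 (0.49), with 9.84 kb in ES48 and 0 kb in ES49, and chr6:6600001-6900000 (0.55), with 21.2 kb in ES48 and 0 kb in ES49. None of these 3 held H3K27me3 or EWS-FLI1. For Trib2 they were chr8:10800001-11200000 (0.61), chr5:99200001-99600000 (0.95) and chr4:62400001-62800000 (0.98), with 24.1, 15.7 and 11.0 kb of H3K27ac in ES48 and 0.45, 0.35 and 0.45 kb in ES49. Their ES49 H3K27me3 covered 3.04, 1.44 and 3.70 kb, beside 3.20 kb at Trib2. Likeness here means covered length in 5 libraries, and nothing about the genes in these tiles.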

How the data were processed

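ChIP-seq libraries were made from ES48 and ES49 cells, with 1 library per line and antibody. The submitters' processing notes name Bowtie 1.1.1, SAMtools 1.2 and the build mm9. Peak names in the deposited files begin with MACS, and the caller's version, control and thresholds are not given in the sources at hand. Each deposited file gives start, end and a score per peak, the authors' own. Scores were compared within a list, except that the share of peaks at 3100 was given for both H3K27ac lists. The highest ES48 H3K27ac score was also set beside those of the ES49 histone-mark lists. Other columns are positions.

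Peaks of the windows were listed with widths, scores, ranks, distances and overlaps (1 bp or more). With 1 library per group no test was run. Lists and windows were chosen with earlier results of these data known, and the levels of score, width, 500 kb and 2 Mb with the data in view. The overlap and length functions were tested on simulated data. Named were all members, the nearest peaks outside and the 3 most similar tiles. The gene table and promoters are of GRCm38.p6, so peaks of related genes (other Lmo and Trib genes and their partners) were not located, protein identities were not computed, and the labelled cell type was not checked against marker genes. Tools were Python 3.11.15, numpy 2.4.6, pandas 2.3.3 and matplotlib 3.10.9.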

Additional observations from a re-analysis of the deposited data

How the results depend on the processing

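Of the alternatives, few could act on these windows: the restriction by score and, for H3K27me3 at Trib2, overlap by 50% of the shorter peak, under which 1 ES48 H3K27ac peak still overlapped it. When peaks in the lower 50% by score were left out of every list, 2 ES48 H3K27ac peaks were left at Lmo3 and 4 at Trib2. All of these lacked an ES49 H3K27ac peak, against 7 at Lmo3 and 6 at Trib2 as reported. With that restriction the ES48 minus ES49 difference in covered length was 11.4 kb at Lmo3 and 17.5 kb at Trib2, against 14.2 and 19.8 kb. The others (either overlap rule for H3K27ac, peaks within 1 kb, equal numbers of H3K27ac peaks, scaling of the ES49 length, windows widened by 100 kb or narrowed by 50 kb per side) changed no value and say nothing about stability. The ES49 H3K27ac list is empty there, and no border moved past a peak. No paired analysis was possible because each group is 1 sample. Depth is unknown, and the lists start at a score of 50, so an empty window says nothing about weaker signal.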

Other observations

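The ES49 interval without H3K27ac peaks around Trib2 held further ES48 acetylation outside the 400 kb window. Its 11 other ES48 H3K27ac peaks had scores of 89.8 to 3100, and the widest, chr12:14153435-14159742, was 6308 bp wide. The same interval held 1 ES49 H3K27me3 peak outside the window, chr12:16311857-16312121, with a score of 52.4, close to the lowest score of the list. The domain without ES49 H3K27ac that covered the most length in ES48 was chr5:77783621-77813954, with 11 peaks covering 18.9 kb.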
